A study of Homo sapiens with 6 samples.

Results

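Genes of homologous recombination and of the Fanconi pathway were followed across H1299 cells depleted of RBP2. The genes were taken by symbol from a list of 37, and each was read by its brightest probe set over the 6 arrays. Of the 37 genes, 33 were found among the 19775 genes that had a probe set of their own, and 4 are not analysed here. H1299 is a human non-small-cell lung carcinoma line that lacks p53, and RBP2, now called KDM5A, removes methyl groups from lysine 4 of histone H3. The 3 groups were cells infected with lentivirus carrying RBP2 KD1, here shRNA 1, cells infected with RBP2 KD2, here shRNA 2, and control cells with a scramble shRNA, with 2 arrays each. Cells were grown with 10% serum and harvested after 72 hours, and the same protocol is given for all 6 samples. The labels do not say whether the arrays of a group came from separate cultures, so the p-values measure the spread between these arrays, which may be technical.

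Homologous recombination repairs DNA double-strand breaks from the sister chromatid, and therefore runs mainly in S and G2 phase. ATM and ATR sense the damage, the MRE11, RAD50 and NBN complex and nucleases trim the ends, and BRCA1 with its partners loads the recombinase that searches for the matching strand. The Fanconi core complex, with its ubiquitin-conjugating enzyme UBE2T, marks FANCI and its partner at DNA crosslinks, which then calls on nucleases and the recombination machinery. Many of these genes are transcribed as cells enter S phase, under E2F factors that the retinoblastoma protein restrains.

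Promoter sequences are shown for the members with the largest called falls with shRNA 2, BLM and RAD51AP1, and for MUS81 and PALB2, which after NBN had the highest fold changes with shRNA 2. FANCI also belonged to the first set. Each run covers 250 bases before to 50 after the start site on the gene's strand, from RefSeq on GRCh38.p14: chr15:90717096-90717395 on the plus strand for BLM, chr12:4538640-4538939 on the plus strand for RAD51AP1, chr11:65860183-65860482 on the plus strand for MUS81 and chr16:23641261-23641560 on the minus strand for PALB2. Capitals mark matches, on either strand, to the string GCGGGAA, which is part of E2F sites, and to the CCAAT box.
BLM: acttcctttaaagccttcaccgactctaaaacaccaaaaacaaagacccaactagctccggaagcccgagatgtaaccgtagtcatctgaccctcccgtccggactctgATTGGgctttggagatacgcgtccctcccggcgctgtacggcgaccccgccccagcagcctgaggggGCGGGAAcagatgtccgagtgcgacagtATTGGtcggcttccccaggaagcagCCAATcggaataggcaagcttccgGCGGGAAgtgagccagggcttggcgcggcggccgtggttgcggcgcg
RAD51AP1: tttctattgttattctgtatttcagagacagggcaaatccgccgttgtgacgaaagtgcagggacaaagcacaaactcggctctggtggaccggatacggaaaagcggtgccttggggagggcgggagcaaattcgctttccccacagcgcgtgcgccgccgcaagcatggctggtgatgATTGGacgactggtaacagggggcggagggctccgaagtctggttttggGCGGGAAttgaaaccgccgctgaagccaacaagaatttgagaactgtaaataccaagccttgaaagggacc
MUS81: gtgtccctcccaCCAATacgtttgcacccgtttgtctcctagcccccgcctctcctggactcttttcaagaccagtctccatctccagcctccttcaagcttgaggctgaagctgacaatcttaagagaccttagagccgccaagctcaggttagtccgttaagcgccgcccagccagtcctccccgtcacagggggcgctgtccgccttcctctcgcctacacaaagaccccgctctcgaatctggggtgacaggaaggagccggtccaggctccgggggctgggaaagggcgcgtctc
PALB2: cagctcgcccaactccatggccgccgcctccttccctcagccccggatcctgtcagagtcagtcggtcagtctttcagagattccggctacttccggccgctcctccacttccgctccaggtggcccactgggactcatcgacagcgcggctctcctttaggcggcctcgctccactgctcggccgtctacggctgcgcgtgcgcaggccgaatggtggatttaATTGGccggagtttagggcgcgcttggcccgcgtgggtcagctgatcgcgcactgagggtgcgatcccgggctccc

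GCGGGAA occurred 2 times in the BLM window, beginning at positions -74 and 3 from the start site, and 1 time in the RAD51AP1 window, at -21. It did not occur in the MUS81 or PALB2 window, while each of the 4 windows held CCAAT. Of the 33 members, 30 had a window in the table, and 13 of these (43.3%) held GCGGGAA, against 7.82% of all 27303 genes with a window. Among them were 7 of the 12 members called lower with shRNA 2 (BRCA1, BRIP1, BLM, RAD51AP1, XRCC2, RAD54L and FANCG) and 6 of the other 18 (BARD1, RAD51D, XRCC3, FANCC, FANCE and FANCL). The string was added after the BLM and RAD51AP1 sequences had been read, so these shares are a description. The genes with a window were not limited to genes on the arrays or to tested genes, unlike most members. A longer E2F-type string chosen earlier, TTTNNCGC, occurred in 4 of 30 members (13.3%), CHEK2, EXO1, XRCC2 and FANCC, and in 8.23% of all genes. TTTGAA, the string of the cell cycle homology region, occurred in 4 of 30 (13.3%), ATM, BRIP1, FANCC and UBE2T, and in 18.2% of all genes. CCAAT occurred in 15 of 30 (50%) and in 39.7% of all genes.

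KDM5A, the targeted gene, measured 7.42 and 7.27 with shRNA 1, 6.66 and 6.72 with shRNA 2, and 9.35 and 9.42 in scramble cells on the log2 scale, lower on all 4 knockdown arrays. Array medians of tested genes ran from 8.49 to 8.56. KRT8, KRT18 and VIM, markers of the line, ran from 9.80 to 15.04, while KRT19 stood at the lowest value, 2.24, on all arrays. Of 16 epithelial, leukocyte, endothelial, fibroblast and alveolar markers 14 stayed under 3 on every array, and the exceptions were COL1A1 (6.20 to 7.02) and SFTPB (4.96 to 5.17). A gene was tested when its mean over the 6 arrays reached 4, which left 10526 genes. Of the 33 members 29 were tested, and RAD51D, XRCC3, FANCB and FANCF were too dim.

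Many of these genes were lower with shRNA 2, and 1 was called lower with shRNA 1. With shRNA 1, limma called 1 of 29 tested members lower, RAD50, and 0 higher, where 7.9% of all tested genes were called lower and 3.62% higher. With shRNA 2 it called 13 of 29 lower and 0 higher, where 14.4% of all tested genes were called lower and 16.7% higher. At an unadjusted p under 0.05, 3 members were lower and 0 higher with shRNA 1, and 18 were lower and 1 higher with shRNA 2. Shares of all tested genes at an unadjusted p were not taken, so unadjusted counts here and below have no baseline. A call means an adjusted p under 0.05 after Benjamini-Hochberg adjustment over all tested genes. Over all 33 members, dim ones included, the median log2 fold change was -0.30 with shRNA 1 and -1.05 with shRNA 2, against medians over all tested genes of 0.00 and 0.08. Both comparisons use the same scramble arrays. In 27 of 33 members both shRNA 2 arrays lay below both scramble arrays, a pattern that 29.8% of all tested genes showed. In 21 of 33 they lay below all 4 other arrays, as in 22.8% of all tested genes.

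The labels state no pairing of the arrays. Replicate numbers were taken to pair them because of correlations in these same data, which do not establish a pairing. The model with the number as a block therefore stands beside the main one. With the block, 4 tested members were called lower with shRNA 1 (16.8% of all genes lower, 12.8% higher), RAD50, RAD51B, FANCE and MUS81, and none higher. With shRNA 2 the block gave 22 lower and 1 higher, NBN (22.2% of all genes lower, 28.4% higher). Averaged over both shRNAs, the main model called 4 members lower (6.92% of all genes lower, 5.61% higher), BRIP1, RAD50, BLM and FANCI, none higher (16 lower and 0 higher at an unadjusted p under 0.05). In the main model no member was called with both shRNAs taken one by one, and with the block RAD51B and FANCE were called lower with each. The block raised the count of 4 to 15, all lower, where it called 1842 of 10526 tested genes lower and 1828 higher. Fewer members were called in this average when any 1 array was left out.

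**Figure D1:**
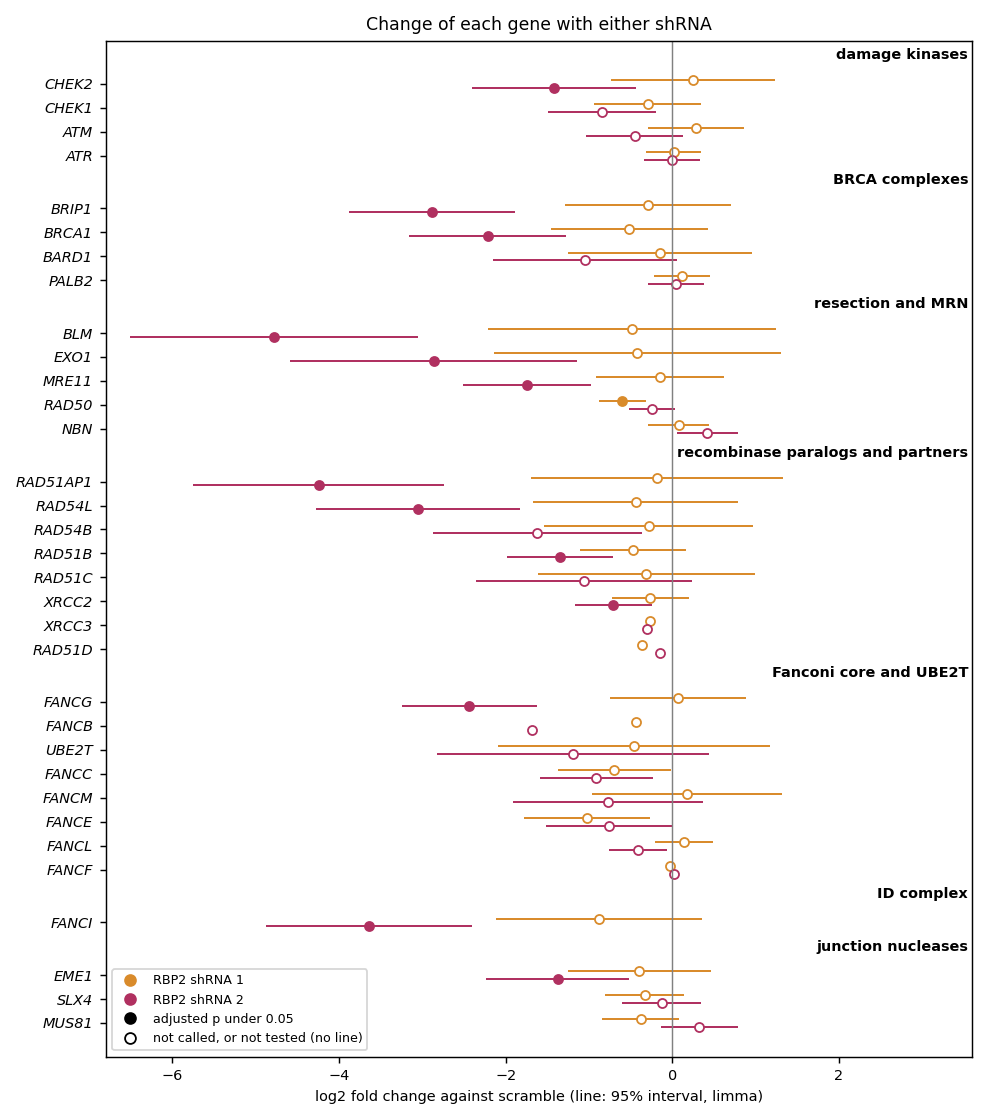
Log2 fold change against scramble of the 33 members with either shRNA (x axis), by role group (y axis), with the 95% interval of limma as a line and filled points for an adjusted p under 0.05. The 13 filled shRNA 2 points lie between -4.78 and -0.71, and 1 shRNA 1 point is filled, RAD50 at -0.60.

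Among damage kinases, recombinase partners and the Fanconi core, the median log2 fold change was 0.13, -0.30 and -0.23 with shRNA 1 and -0.65, -1.20 and -0.84 with shRNA 2. With shRNA 2 limma called 1 of 4, 4 of 6 and 1 of 6 of their tested genes lower, against 14.4% of all tested genes. With the block it called 3 of 4, 6 of 6 and 5 of 6 lower, against 22.2% of all tested genes. The difference between these groups was not tested. CHEK2, the effector kinase downstream of ATM, measured 8.17 and 7.31 with shRNA 1, 5.95 and 6.19 with shRNA 2, and 7.87 and 7.10 in scramble cells. The shRNA 2 arrays were the lowest pair, and those of shRNA 1 overlapped the scramble arrays. Its log2 fold change was -1.42 ± 0.38 with shRNA 2 (SE, adjusted p = 0.045) and 0.25 ± 0.38 with shRNA 1 (adjusted p = 0.72). ATM, the kinase that responds to double-strand breaks, measured 9.24 and 9.69 with shRNA 1, 8.66 and 8.80 with shRNA 2, and 8.97 and 9.39 in scramble cells. Its shRNA 2 arrays lay below the rest by a narrow margin, and the change of -0.45 ± 0.22 did not pass (adjusted p = 0.18; 0.031 with the block). CHEK1, the effector kinase of ATR, averaged 8.69 with shRNA 1, 8.14 with shRNA 2 and 8.99 in scramble cells. The difference of -0.85 with shRNA 2 did not pass (adjusted p = 0.056, and 0.019 with the block). Its other probe sets, from bright to dim, read -0.71, -0.17 and -1.01 with shRNA 1, and -0.69, -0.83 and 0.25 with shRNA 2. For ATR, the kinase of stalled forks, the 3 means were 10.00, 9.98 and 9.99, and the 95% interval of the shRNA 2 difference ran from -0.33 to 0.31. The replicate 2 arrays of all 3 groups held the same ATR value, 9.92, so the near-equal means rest partly on tied values. The next brightest ATR probe set read -0.02 with shRNA 1 and -0.13 with shRNA 2.

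Of BRCA1 and its 3 partners, BRCA1 itself and BRIP1 were called lower with shRNA 2. BRIP1, the helicase that binds BRCA1, measured 8.52 and 7.65 with shRNA 1, 5.30 and 5.68 with shRNA 2, and 8.73 and 8.01 in scramble cells. Both shRNA 2 arrays lay well below the rest, and the shRNA 1 arrays overlapped the scramble arrays. BRIP1 was 7.38-fold lower with shRNA 2 (log2 fold change -2.88 ± 0.38, adjusted p = 0.0080) and at -0.29 ± 0.38 with shRNA 1 (adjusted p = 0.67). BRCA1 itself measured 9.22 and 8.22 with shRNA 1, 7.08 and 6.96 with shRNA 2, and 9.47 and 8.99 in scramble cells. The shRNA 2 pair lay more than 1 log2 unit below every other array, a 4.65-fold lower level (-2.22 ± 0.36, adjusted p = 0.013), and with shRNA 1 the difference was -0.52 ± 0.36 (adjusted p = 0.41). BARD1, which forms a ubiquitin ligase with BRCA1, differed by -1.05 ± 0.43 with shRNA 2 (adjusted p = 0.12; 0.042 with the block), and its 2 other probe sets read -0.81 and -1.14. PALB2, the bridge from BRCA1 to the recombinase loader, read 7.70 and 7.84 with shRNA 1, 7.70 and 7.70 with shRNA 2, and 7.76 and 7.55 in scramble cells. Its difference with shRNA 2 was 0.04, with an interval from -0.28 to 0.37.

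Among the genes that process broken ends, the helicase BLM had the largest fall of all members, and 1 of the MRN subunits, MRE11, was called lower with shRNA 2. BLM, mutated in Bloom syndrome, measured 7.53 and 5.77 with shRNA 1, 2.27 and 2.45 with shRNA 2, and 7.72 and 6.55 in scramble cells. With shRNA 2 it stood just above the lowest value of the arrays, where GCRMA compresses differences. Its log2 fold change was -4.78 ± 0.67 with shRNA 2 (adjusted p = 0.0091) and -0.49 ± 0.67 with shRNA 1 (adjusted p = 0.69). The exonuclease EXO1, which extends resection, measured 7.44 and 5.63 with shRNA 1, 4.40 and 3.78 with shRNA 2, and 7.41 and 6.50 in scramble cells. The arrays of a group differed by up to 1.81 here, and EXO1 was 7.29-fold lower with shRNA 2 (-2.87 ± 0.67, adjusted p = 0.031). MRE11, the nuclease of the MRN complex, measured 8.04 and 7.43 with shRNA 1, 6.01 and 6.27 with shRNA 2, and 8.18 and 7.59 in scramble cells, with the shRNA 2 pair lowest. It fell by 1.75 ± 0.29 on the log2 scale with shRNA 2 (adjusted p = 0.013). A dimmer MRE11 probe set read 0.55 with shRNA 1 and -0.55 with shRNA 2.

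The other MRN subunits, RAD50 and NBN, were not called with shRNA 2. RAD50, the complex's ATPase, was described after its values were seen, as the one member called with shRNA 1. It measured 9.25 and 9.14 with shRNA 1, 9.53 and 9.58 with shRNA 2, and 9.77 and 9.82 in scramble cells, and the 3 groups did not overlap. Its log2 fold change was -0.60 ± 0.11 with shRNA 1 (adjusted p = 0.031) and -0.24 ± 0.11 with shRNA 2 (adjusted p = 0.14). Of its other probe sets 1 read -0.74 and -0.30 with shRNA 1 and shRNA 2, and 1 read 0.027 and 0.011. The RAD50 call was lost when any 1 of the 6 arrays was left out, with log2 fold changes from -0.65 to -0.55. NBN, the subunit that recruits ATM, averaged 10.97 with shRNA 1, 11.32 with shRNA 2 and 10.90 in scramble cells. Both shRNA 2 arrays lay above both scramble arrays, and the difference of 0.42 ± 0.14 did not pass (adjusted p = 0.074; 0.019 with the block).

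The recombinase paralogs and partners had 4 of 6 tested members called lower with shRNA 2 (14.4% of all tested genes), and a median of -1.20 over all 8. RAD51AP1, which stimulates strand invasion, measured 12.00 and 10.73 with shRNA 1, 7.83 and 6.76 with shRNA 2, and 11.95 and 11.14 in scramble cells. The shRNA 2 arrays lay far below, and the shRNA 1 and scramble arrays overlapped. RAD51AP1 was 19.0-fold lower with shRNA 2 (log2 fold change -4.25 ± 0.59, adjusted p = 0.0087), and with shRNA 1 the difference was -0.18 ± 0.59 (adjusted p = 0.88). RAD54L, the motor protein that remodels the paired strands, measured 7.03 and 5.84 with shRNA 1, 4.18 and 3.48 with shRNA 2, and 7.15 and 6.61 in scramble cells. The gap between the shRNA 2 pair and the next array exceeded 1.5 log2 units, and the fold change was -3.05 ± 0.47 (adjusted p = 0.011). RAD51B, a paralog that supports filament assembly, was dimmer, at 5.35 and 4.92 with shRNA 1, 4.40 and 4.11 with shRNA 2, and 5.85 and 5.36 in scramble cells. It fell by 1.35 ± 0.24 with shRNA 2 (adjusted p = 0.016) and had -0.47 ± 0.24 with shRNA 1 (adjusted p = 0.28; 0.029 with the block). XRCC2, another paralog, was called as well (-0.71, adjusted p = 0.037), from a single probe set of a type that can cross-hybridise.

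RAD54B and RAD51C lay lower without passing. RAD54B, a relative of RAD54L, averaged 8.13 with shRNA 1, 6.80 with shRNA 2 and 8.42 in scramble cells, a difference with shRNA 2 of -1.62 ± 0.48 (adjusted p = 0.059; 0.0028 with the block). The paralog RAD51C averaged 8.90, 8.15 and 9.21 in the same order, with -1.06 ± 0.50 (adjusted p = 0.17; 0.014 with the block) and -1.25 by its second probe set. RAD51D and XRCC3 stayed between 2.24 and 3.33 on all arrays.

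The Fanconi core had 1 of 6 tested members called lower with shRNA 2 (14.4% of all tested genes), and a median of -0.84 over all 8. FANCG, an adaptor subunit of the core, measured 8.83 and 8.04 with shRNA 1, 5.85 and 6.01 with shRNA 2, and 8.62 and 8.11 in scramble cells. The shRNA 1 and scramble arrays overlapped and the shRNA 2 pair lay far below, a 5.41-fold lower level (log2 fold change -2.44 ± 0.31, adjusted p = 0.0074). FANCL, the ubiquitin ligase of the core, was bright throughout, at 11.82 and 11.60 with shRNA 1, 11.12 and 11.20 with shRNA 2, and 11.65 and 11.50 in scramble cells. Its difference with shRNA 2 was small and did not pass (-0.41 ± 0.13, adjusted p = 0.070; 0.036 with the block).

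Other core genes varied between arrays or were dim. FANCC, a core subunit, measured 5.91 and 6.52 with shRNA 1, 5.94 and 6.05 with shRNA 2, and 7.14 and 6.68 in scramble cells. FANCE, another, measured 5.62 and 4.94, 5.51 and 5.56, and 6.58 and 6.02 in that order. In both genes the scramble arrays were the highest. The differences were -0.70 and -0.91 for FANCC (adjusted p = 0.16 and 0.052) and -1.02 and -0.77 for FANCE (adjusted p = 0.090 and 0.11). With the block FANCE passed with both shRNAs (adjusted p = 0.025 and 0.031) and FANCC with shRNA 2 (0.042). FANCM, the helicase that anchors the core to DNA, differed by -0.77 with shRNA 2 (adjusted p = 0.24), and UBE2T by -1.20 (adjusted p = 0.21; 0.030 with the block). The UBE2T scramble arrays, 10.40 and 8.94, differed by 1.46. FANCB measured 4.28 and 2.71 with shRNA 1, 2.25 and 2.24 with shRNA 2, and 4.62 and 3.25 in scramble cells, under the level for a test. FANCF stayed near the lowest value in all groups.

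FANCI, a subunit of the clamp that the core ubiquitinates, measured 9.77 and 8.54 with shRNA 1, 6.43 and 6.35 with shRNA 2, and 10.46 and 9.61 in scramble cells. The shRNA 2 pair lay lowest, by more than 2 log2 units. FANCI was 12.5-fold lower with shRNA 2 (log2 fold change -3.64 ± 0.48, adjusted p = 0.0079). With shRNA 1 the difference of -0.88 ± 0.48 did not pass (adjusted p = 0.30). Its other probe sets read -3.32 and -0.93 with shRNA 2. Of the nucleases that cut joined molecules, EME1 measured 10.44 and 9.60 with shRNA 1, 9.11 and 8.98 with shRNA 2, and 10.69 and 10.15 in scramble cells. It was lowest on the shRNA 2 arrays (-1.38 ± 0.33, adjusted p = 0.034). MUS81, the catalytic partner of EME1, measured 8.12 and 7.78 with shRNA 1, 8.80 and 8.50 with shRNA 2, and 8.39 and 8.27 in scramble cells. Its shRNA 2 arrays were the highest pair and its shRNA 1 arrays the lowest, with differences of -0.38 ± 0.18 with shRNA 1 (adjusted p = 0.23; 0.049 with the block) and 0.32 ± 0.18 with shRNA 2 (adjusted p = 0.22). SLX4, the scaffold of these nucleases, had -0.33 and -0.13 with shRNA 1 and shRNA 2, and neither passed (adjusted p = 0.30 and 0.63). Both of its shRNA 2 arrays read the same 4.97.

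**Figure D2:**
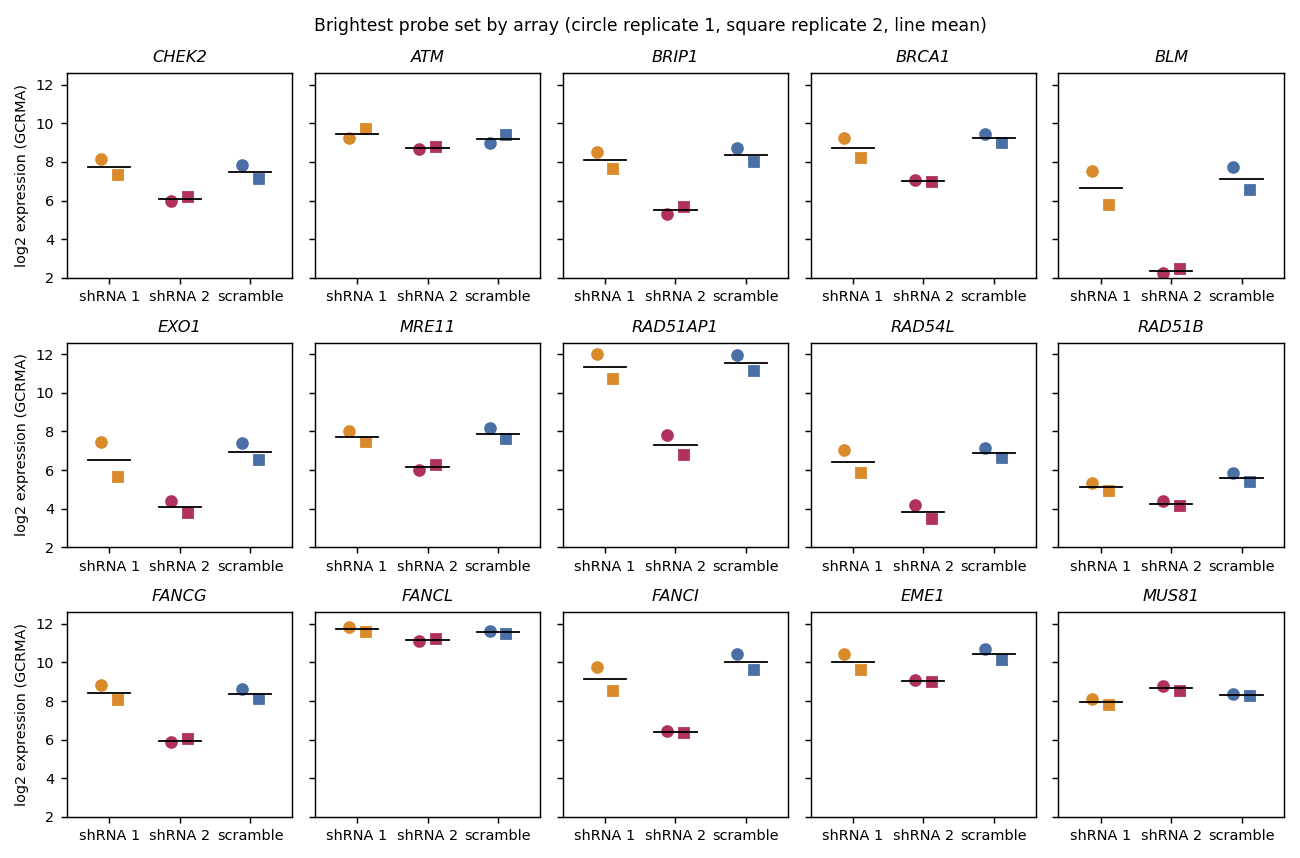
Log2 expression (y axis) on each array for 15 members, up to 3 called in any comparison per role group, by group (x axis), with circles for replicate 1, squares for replicate 2 and a line at the mean. The shRNA 2 points lie lowest in every panel except MUS81, where panels were chosen by calls and by change with shRNA 2. Over all members they were the lowest pair in 21 of 33. They were not in ATR, PALB2, RAD50, NBN, RAD51D, XRCC3, FANCC, FANCE, FANCF, UBE2T and SLX4, which are not plotted.

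Probe sets beyond the brightest gave the same sign in most cases. There were 19 with a mean of at least 4, from 12 members, and 17 had the sign of the brightest probe set with shRNA 2. The exceptions were the dim CHEK1 probe set, at 0.25, and the RAD50 one at 0.011.

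Calls with shRNA 2 depended on which arrays were used. Shares of all tested genes called without an array were not taken, so whether other genes lost calls alike is not known. Leaving out shRNA 2 replicate 1, shRNA 2 replicate 2 or scramble replicate 1 left 0 members called by limma with shRNA 2, with 12, 9 and 12 at an unadjusted p under 0.05. Without scramble replicate 2, 9 were called, and without either shRNA 1 array 15. CHEK2, EXO1, EME1 and XRCC2 also lost their calls without scramble replicate 2. The fold changes moved less: BLM ranged from -5.37 to -4.19 over the 6 fits, RAD51AP1 from -4.78 to -3.71, BRCA1 from -2.46 to -1.98 and FANCG from -2.69 to -2.18.

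The difference between the shRNAs was tested directly. Of 29 tested members, 13 were higher with shRNA 1 than with shRNA 2 and 2 were lower, where 17.8% of all tested genes were higher and 23.3% lower. With the block 17 were higher and 3 lower (25.1% and 32.6% of all genes). The differences, shRNA 1 minus shRNA 2, were 4.29 ± 0.67 for BLM (adjusted p = 0.0077), 4.06 ± 0.59 for RAD51AP1 (0.0061), 2.76 ± 0.48 for FANCI (0.010) and 2.50 ± 0.31 for FANCG (0.0043). ATM differed as well, by 0.74 ± 0.22 (adjusted p = 0.0499), a call lost without any 1 of the 6 arrays. Other ATM probe sets with a mean of at least 4 read 0.33 and 0.33, and the mean of all ATM probe sets gave 0.22 (limma adjusted p = 0.27). EME1 had 0.98 ± 0.33 (adjusted p = 0.068; 0.011 with the block). The pair that went the other way were MUS81, at -0.70 ± 0.18 (adjusted p = 0.030), and RAD50, at -0.36 ± 0.11 (0.048). The RAD50 call was lost without any 1 of the arrays, and the MUS81 call without any but shRNA 1 replicate 1. Without shRNA 1 replicate 1, shRNA 2 replicate 1 or shRNA 2 replicate 2 the 15 calls became 8, 2 and 3. KDM5A was itself lower with shRNA 2 than with shRNA 1, by 0.65 ± 0.11 (adjusted p = 0.010).

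Arrays of a group differed in these genes, in the same direction for shRNA 1 and scramble cells. Replicate 1 was higher than replicate 2 in 29 of 33 members with shRNA 1, in 17 of 33 with shRNA 2 and in 30 of 33 in scramble cells. Over all tested genes the shares were 49.5% with shRNA 1, 44.5% with shRNA 2 and 47.6% in scramble cells. The median gap of the members was 0.68, 0.00 and 0.52 log2 units in that order, against 0.00, -0.02 and 0.00 over all tested genes. S phase genes had median gaps of 1.07, 0.23 and 0.89, and mitosis genes of 1.09, 0.59 and 0.78. Within the replicate numbers, shRNA 1 was below scramble for both numbers in 22 of 33 members, against 39.6% of all tested genes, and shRNA 2 in 27 of 33, against 36% of all tested genes.

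**Figure D3:**
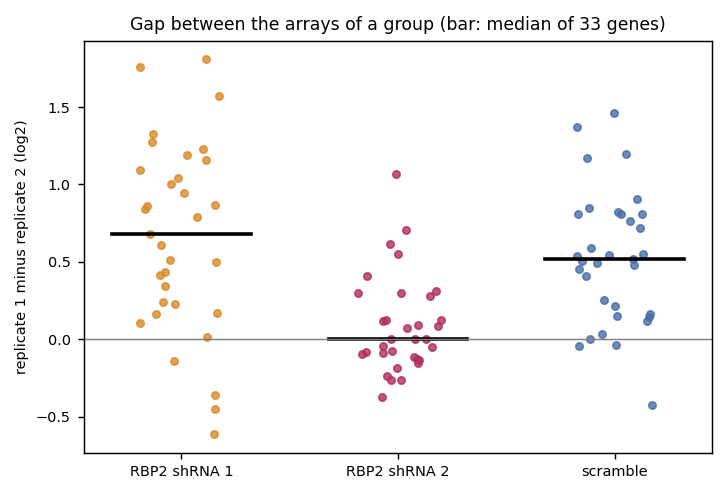
Replicate 1 minus replicate 2 (y axis, log2) for each of the 33 members in each group (x axis), with the median as a bar. The medians are 0.68 with shRNA 1, 0.00 with shRNA 2 and 0.52 in scramble cells.

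Genes of S phase and mitosis were also lower with shRNA 2. Over all tested genes 14.4% were called lower and 16.7% higher with shRNA 2, and 7.9% lower and 3.62% higher with shRNA 1. With shRNA 2, 27 of 43 tested S phase genes were called lower and 0 higher, with a median of -1.82, among them CDC45 (-4.51), GINS2 (-4.21), MCM10 (-4.21) and CDC6 (-3.99). Of 44 tested mitosis genes 40 were lower and 0 higher, with a median of -3.12, among them the phosphatase CDC25C (-4.46), CDCA8 (-4.21), NUF2 (-4.03) and PBK (-4.02). With shRNA 1, 2 S phase genes and 0 mitosis genes were called lower and none higher, with medians of -0.13 and 0.02 (3 and 0 lower, and none higher, at an unadjusted p under 0.05). The mean log2 level of the mitosis list was 10.45 and 9.34 with shRNA 1, 7.21 and 6.67 with shRNA 2, and 10.29 and 9.52 in scramble cells, and that of the S phase list was 9.43 and 8.36, 7.18 and 6.94, and 9.53 and 8.62. The part of this shift in the fall of the recombination genes was not tested. In whole cultures, fewer cells in S and G2 phase and less RNA per cell cannot be told apart.

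Other repair pathways gave a mixed picture with shRNA 2, where 14.4% of all tested genes were called lower and 16.7% higher. Of 61 tested further recombination and crosslink repair genes 16 were lower and 4 higher (median -0.24 over 62), with the polymerase POLQ at -3.42, RMI2, a partner of BLM, at -3.18, the checkpoint mediator MDC1 at -2.88 and the resolvase GEN1 at -2.67. End joining, which needs no sister chromatid, had 1 of 9 lower, the kinase subunit PRKDC at -0.94, and a median of 0.01 over 11. Mismatch repair had 1 of 4 higher, MLH3 at 0.90. Excision repair had 8 of 36 lower and 6 higher with a median of 0.14, the glycosylase NEIL3 at -3.26, the ligase LIG1 at -2.09 and UNG at -1.28 against the thymine glycosylase TDG at 1.61. With shRNA 1 these 4 lists had 6, 0, 0 and 3 members lower and 1, 0, 0 and 0 higher. Over all tested genes 7.9% were called lower and 3.62% higher with shRNA 1.

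**Figure D4:**
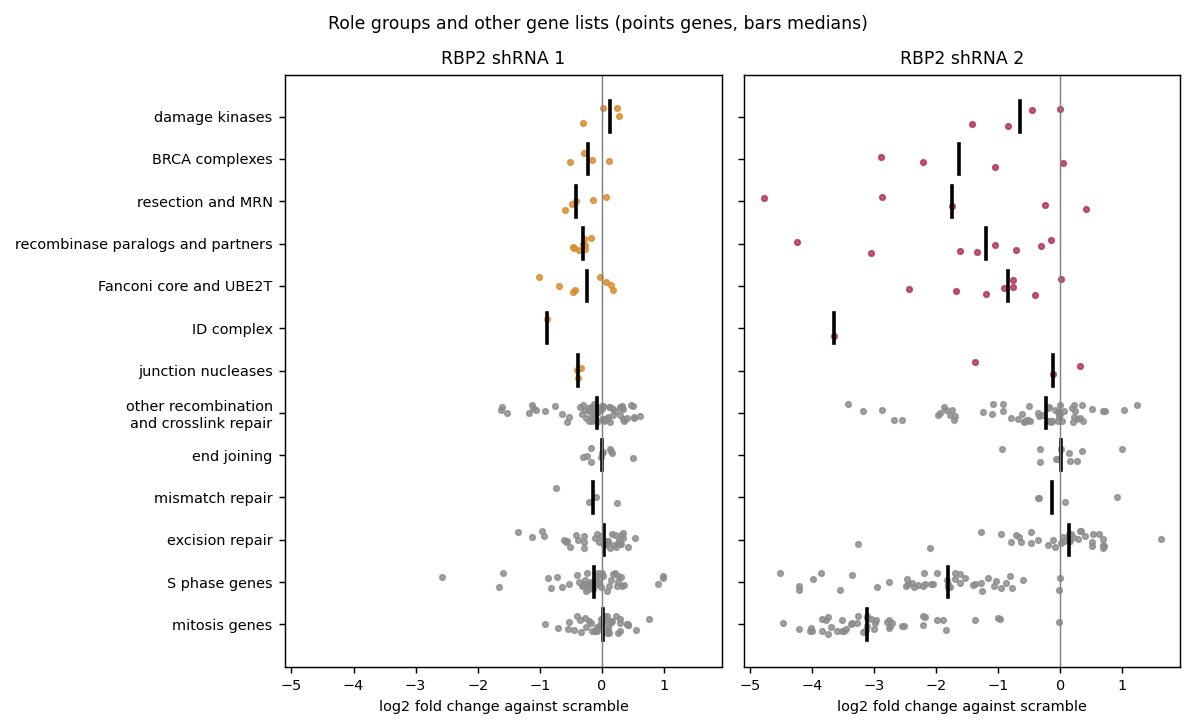
Log2 fold change against scramble (x axis) with shRNA 1 (left) and shRNA 2 (right) for the genes of each role group in colour and of other lists in grey (y axis), with medians as bars. With shRNA 2 the medians of the role groups run from -3.64 for FANCI alone to -0.13 for the junction nucleases, against -1.82 for S phase genes and -3.12 for mitosis genes, and with shRNA 1 the S phase and mitosis medians lie at -0.13 and 0.02.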

How the data were processed

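Biotin-labelled RNA of 6 samples, from 250 ng of total RNA, was hybridised to 1-colour Affymetrix arrays, per the labels. The deposited value of each probe set is on a log2 scale, as its range shows, and the submitters' processing notes name GCRMA. The GCRMA version is not stated. GCRMA corrects background by probe sequence, normalizes between arrays and compresses dim probe sets to a floor, here 2.24, so fold changes of dim genes are understated. No detection calls were used.

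Probe sets with 1 gene symbol were named from the platform annotation, updated by gene identifier, and the brightest stood for a gene. Groups were compared with limma 3.58.1 in R 4.3.3 over all 6 arrays (3 residual degrees of freedom), two-sided, on 10526 genes with a mean of at least 4. The median SE was 0.17 for each shRNA, with precision limited by having 2 arrays a group. The script was tested on simulated data. After subtraction of group means, arrays sharing a replicate number correlated over genes at 0.75 (shRNA 1 with scramble), 0.51 (shRNA 2 with scramble) and 0.53 (the 2 shRNAs), so the replicate numbers of the titles were taken to pair the arrays.

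The members, role groups and gene lists were chosen with earlier results of these data known. In each role group up to 3 members called in any comparison, ranked by change with shRNA 2, were described and plotted array by array. Array values of RAD50, PALB2, FANCB, FANCC, FANCE and UBE2T were added after they were seen. Up to 4 called genes of each other list were named. Alternatives were the replicate block, the filter, the choice of probe sets, scaling, the variance prior, the arrays fitted and leaving out each array.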

Additional observations from a re-analysis of the deposited data

Results flagged for a closer look

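These members differed between the shRNAs in limma's test of shRNA 1 minus shRNA 2 over all tested genes (2 arrays each). Higher with shRNA 1 were the damage kinases ATM (log2 difference 0.74) and CHEK2 (1.67), BRCA1 (1.70) and its helicase BRIP1 (2.59). Of the end-processing genes MRE11 (1.60), EXO1 (2.45) and BLM (4.29) were higher with shRNA 1, as were RAD51AP1 (4.06), RAD51B (0.88), RAD54L (2.61), FANCG (2.50), FANCL (0.55) and FANCI (2.76). RAD50 (-0.36) and MUS81 (-0.70) were lower with shRNA 1 than with shRNA 2.

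For RAD51B, FANCL and ATM the difference was under 1 log2 unit, and ATM lay closest to the threshold (adjusted p = 0.0499). The mean log2 level of the mitosis list, 10.45 and 9.34 with shRNA 1 and 7.21 and 6.67 with shRNA 2, differed in the same direction as the first 13, and its part in these differences was not tested. With groups of 2 arrays no single array can be marked as standing apart.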

How the results depend on the processing

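With shRNA 1, 4 members were called with the replicate block, against 1 in the main model. Without probe sets whose names end in _x_at or _s_at, 0 were called (2 at an unadjusted p under 0.05). With only the arrays compared, 0 were called as well (2 unadjusted). With shRNA 2, 13 became 23 with the block, 0 with no filter on dim genes (18 unadjusted) and 0 to 15 when each array was left out. For shRNA 1 minus shRNA 2, 15 became 2 with no filter and 2 to 13 with an array left out. For the mean of both shRNAs, 4 became 15 with the block, 0 with no filter (13 unadjusted), 2 with the mean of all probe sets, 8 with median-centred arrays and 0 to 3 with an array left out. The block lost no call of the members plotted by array or of RAD50. Among these it added calls of ATM and FANCL with shRNA 2, RAD51B and MUS81 with shRNA 1, and EME1 between the shRNAs, and changed no other. Members outside this set also gained calls with the block, among them CHEK1, BARD1, NBN, RAD54B, RAD51C, FANCC, FANCE and UBE2T with shRNA 2. The cause of these shifts was not tested, and leaving out an array also leaves 2 residual degrees of freedom. With the _x_at and _s_at probe sets left out, 21 members were tested, and BRCA1 and CHEK2 were not among them. RAD50 then turned to 0.027 with shRNA 1, 0.011 with shRNA 2 and 0.016 between the shRNAs. MRE11 turned to 0.55 with shRNA 1 (0.12 with the mean of all probe sets). Another probe set stood for each of these genes when the _x_at and _s_at ones were left out. MRE11 with shRNA 2 was then at -0.55 and no longer called (adjusted p = 0.15). EME1 with shRNA 2 lost its call both ways (adjusted p = 0.12 without those probe sets, 0.075 with the mean). With shRNA 1 small differences that were not called changed sign with an array left out, ranging from -0.18 to 0.68 for CHEK2, -0.72 to 0.14 for BRIP1, -1.37 to 0.40 for BLM, -1.32 to 0.48 for EXO1, -0.45 to 0.16 for MRE11, -0.82 to 0.45 for RAD51AP1, -1.04 to 0.15 for RAD54L, -0.33 to 0.46 for FANCG and -0.82 to 0.022 for EME1. Among the members plotted by array and RAD50, no change with shRNA 2 reversed under any alternative that was run, except that of RAD50. Reversals in the other members were not examined. With 2 arrays a group, differences smaller than about the spread between replicates could not be resolved.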
